A study of Homo sapiens with 3 samples.

Results

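WWC2 and 9 further genes of the Hippo pathway were described by RNA-seq in parental MM468 cells and in 2 drug-resistant derivatives. The 10 genes, of 46427 genes listed, were WWC1, WWC2 and WWC3 (the WWC or KIBRA family), the kinases LATS1 and LATS2, the coactivators YAP1 and WWTR1 (encoding TAZ), the transcription factor TEAD1, and the target genes CCN1 (CYR61) and CCN2 (CTGF). They were picked by name with earlier results of these data known. WWC2 was picked for its read counts, which were 0 in parental MM468 and at least 2042 in both resistant lines. Its difference from parental cells is therefore a description and not a test result. MM468 is MDA-MB-468, an established epithelial cell line from a triple-negative breast cancer, labelled as wild type in all 3 samples. Parental cells received no drug. The adriamycin-resistant cells were the survivors of exposure to adriamycin (doxorubicin) at 10 to 140 nM, and the paclitaxel-resistant cells were the survivors of exposure to paclitaxel at 2 to 320 nM. All 3 lines shared the same medium with fetal bovine serum and kanamycin. The sources used here do not state whether a resistant line was 1 clone, or whether drug was present when RNA was collected. Each line was sequenced once, so no difference below has a replicate check, and no SD or p-value is given.

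The Hippo pathway is a kinase cascade that restrains tissue growth. MST kinases with their adaptor SAV1 activate the LATS kinases, which phosphorylate YAP and TAZ and keep them out of the nucleus. WWC proteins are scaffolds at the cell cortex that promote LATS activity. Unphosphorylated YAP and TAZ bind TEAD factors on DNA and switch on genes such as CCN1 and CCN2, and in breast epithelium high YAP and TAZ activity is known for accompanying invasive and stem-like behaviour. Activity of the pathway is set largely by phosphorylation, which RNA-seq does not measure.

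The counts summed to 32704885 in parental, 47567927 in adriamycin-resistant and 43242628 in paclitaxel-resistant cells. A level of 3 counts, taken here as the limit that a count of 0 allows, equalled 0.0917, 0.0631 and 0.0694 CPM (counts scaled to the library total) in the same order. Fold changes came from the counts after TMM normalization, which sets libraries to a common scale. The range printed after a fold is its 95% interval, from the exact binomial distribution of one count out of the sum of both, and covers counting error only. A gene was called higher or lower when it differed by at least 2-fold. Levels of different genes were ordered by the deposited TPM, a unit that allows for transcript length. The search for genes most like WWC2 used CPM scaled by TMM on all 3 libraries, which does not allow for it. With library size as the only scaling, the median over all genes of the log2 fold change moved from 0.07 to 0.30 between paclitaxel-resistant and parental cells, and the share of called genes that were higher moved from 60.2% to 71.2%. In the comparison of the resistant lines the median moved from 0.04 to 0.28, and that share from 58.1% to 71.4%. Between adriamycin-resistant and parental cells it was 49.0% and 50.0%. The 6 epithelial markers summed to 7998, 8683 and 7381 TPM in parental, adriamycin-resistant and paclitaxel-resistant cells. Single markers differed in direction. KRT7 (1733, 1595 and 965 TPM) and KRT19 (2252, 2500 and 1438 TPM) were lowest in paclitaxel-resistant cells. EPCAM (565, 469 and 788 TPM), CDH1 (47.3, 53.1 and 102 TPM) and KRT8 (2032, 2348 and 2436 TPM) were highest there. KRT18 had 1369, 1718 and 1653 TPM. Sums of ESR1, PGR and ERBB2 were 34.0, 37.2 and 29.6 TPM, with PGR at 0, 0 and 7 counts. Fibroblast markers (6 genes) summed to between 7.84 and 13.3 TPM with COL1A2 and LUM at 0 counts throughout, endothelial markers (3 genes) to between 0.304 and 0.408 TPM, and leukocyte markers (3 genes) to between 2.52 and 13.8 TPM. In bulk RNA, fewer cells expressing a gene and less of its RNA per cell cannot be told apart.

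WWC2, the member the others were grouped around, is a scaffold related to KIBRA. It had 0 counts in parental, 2042 in adriamycin-resistant and 8686 in paclitaxel-resistant cells, or 0, 10.3 and 56.6 TPM. Parental cells were thus below the limit of detection, and the paclitaxel-resistant line was the higher of the resistant lines. Against 3 parental counts, WWC2 was at least 462-fold higher in adriamycin-resistant and at least 1871-fold higher in paclitaxel-resistant cells. In a comparison that needs no bound, WWC2 was 3.95-fold higher in paclitaxel-resistant than in adriamycin-resistant cells (95% interval 3.76 to 4.14). Of the 25281 genes with 0 counts in parental cells, 300 had at least 10 counts in both resistant lines, 30 had at least 100, and 2 had at least 1000. Those 2 were WWC2 and BTNL9, a butyrophilin-like gene named here because the count was so small.

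In the RefSeq annotation of GRCh38.p14 the family members and kinases are WWC1 on chromosome 5 (168291645 to 168472303), WWC3 on chromosome X (10015254 to 10144474), LATS1 on chromosome 6 (149658153 to 149718101) and LATS2 on chromosome 13 (20973036 to 21061586). The coactivators, TEAD1 and the target genes are YAP1 on chromosome 11 (102110447 to 102233424), WWTR1 on chromosome 3 (149517235 to 149724788), TEAD1 on chromosome 11 (12674421 to 12944737), CCN1 on chromosome 1 (85580761 to 85583950) and CCN2 on chromosome 6 (131948176 to 131951372). The spread of the members in the plot of TPM by line was wide. In parental cells their order by TPM was CCN1, CCN2, WWC1, YAP1, WWTR1, TEAD1, WWC3, LATS1, LATS2 and WWC2, from 307 TPM down to 0. In paclitaxel-resistant cells CCN1 still headed the list with 467 TPM, WWC1 came next with 226 TPM, and WWC2 with 56.6 TPM stood between CCN2 (60.5 TPM) and TEAD1 (43.8 TPM). In adriamycin-resistant cells WWC1 was highest with 197 TPM, ahead of CCN1 with 159 TPM, and LATS1 was lowest with 9.64 TPM, just under WWC2 with 10.3 TPM. Without replicates, the spread that would separate neighbours in these orders is not known.

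**Figure D1:**
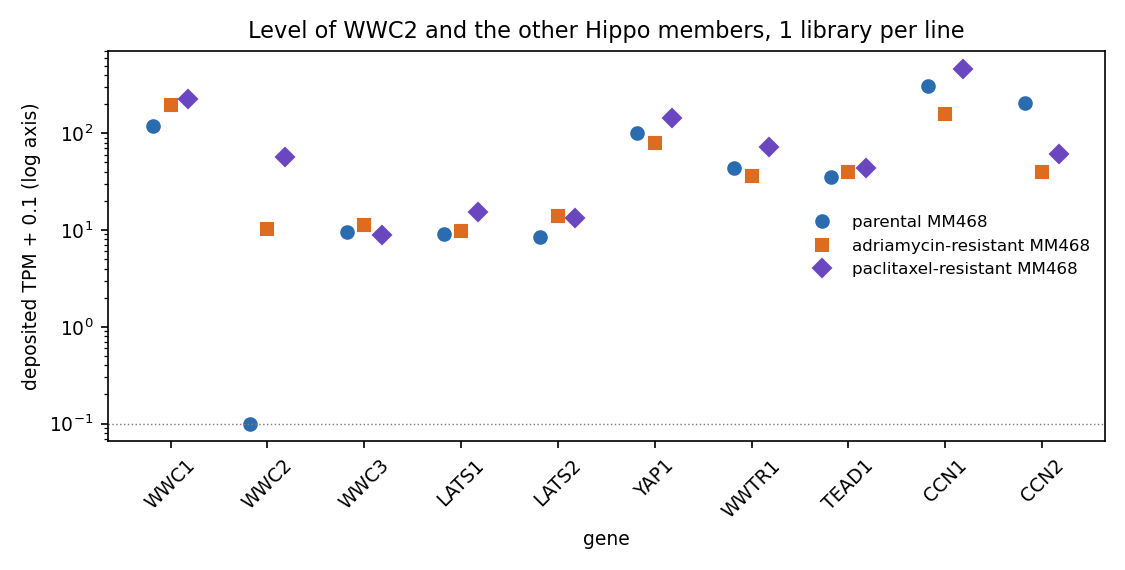
Deposited TPM plus 0.1 (log axis) of the 10 members in parental (circles), adriamycin-resistant (squares) and paclitaxel-resistant (diamonds) MM468 cells, 1 library each, with the dotted line marking 0 TPM. WWC2 sits on that line in parental cells and reaches 10.3 and 56.6 TPM in the resistant lines, and CCN2 is highest in parental cells with 205 TPM.

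The region before the WWC2 start site was read to show which letters known for TEAD binding lie there, beside those of the other genes. WWC2 lies on the plus strand of chromosome 4 (183099257 to 183320777, RefSeq GRCh38.p14), and the GENCODE v29 transcript has 23 exons. The 250 bases before the start were searched for GGAATG and its reverse complement CATTCC, the core bound by TEAD factors, in the RefSeq promoter windows of the same build. Of 35116 windows, 11.9% held at least 1 match, 0.928% at least 2 and 0.0797% at least 3. Windows were given for 8 of the 10 members, and 3 of these genes had a match, WWC2 with 2, CCN2 with 3 and YAP1 with 1. Of the 16 of 22 listed YAP and TAZ target genes with a window, 8 had a match and 3 had at least 2, ANKRD1 among them. A gene with several windows, such as AMOTL2 or AXL, was counted by the window with the most matches. The percentages above are per window, so the gene counts are not to be set directly against them. The 4 windows are printed because WWC2 and CCN2 were the members that differed most between the lines, ANKRD1 was the target gene with opposite calls, and YAP1 is the coactivator itself, with capitals marking the motif.
WWC2 (chr4:183099007-183099256, plus strand): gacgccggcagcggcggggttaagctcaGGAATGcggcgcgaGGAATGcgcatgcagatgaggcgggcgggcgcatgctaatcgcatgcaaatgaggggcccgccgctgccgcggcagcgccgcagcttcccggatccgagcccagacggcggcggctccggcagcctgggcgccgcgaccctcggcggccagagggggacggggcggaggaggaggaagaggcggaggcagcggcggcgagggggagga
CCN2 (chr6:131951373-131951622, minus strand): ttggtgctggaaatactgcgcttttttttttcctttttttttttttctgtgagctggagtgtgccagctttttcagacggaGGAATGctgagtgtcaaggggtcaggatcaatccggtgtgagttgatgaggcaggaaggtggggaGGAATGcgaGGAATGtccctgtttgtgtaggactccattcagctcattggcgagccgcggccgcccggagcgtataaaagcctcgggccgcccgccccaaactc
ANKRD1 (chr10:90921088-90921337, minus strand): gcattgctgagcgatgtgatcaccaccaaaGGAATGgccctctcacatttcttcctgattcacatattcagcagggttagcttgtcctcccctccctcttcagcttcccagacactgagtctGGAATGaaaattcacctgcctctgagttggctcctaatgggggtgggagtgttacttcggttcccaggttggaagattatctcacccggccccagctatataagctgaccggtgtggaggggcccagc
YAP1 (chr11:102110197-102110446, plus strand): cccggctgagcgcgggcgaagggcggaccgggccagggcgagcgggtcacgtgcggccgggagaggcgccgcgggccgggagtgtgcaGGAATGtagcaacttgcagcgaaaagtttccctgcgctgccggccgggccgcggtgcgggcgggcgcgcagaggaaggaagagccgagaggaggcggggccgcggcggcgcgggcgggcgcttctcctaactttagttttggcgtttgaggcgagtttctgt
Each is written 5′ to 3′ on the strand of its gene and ends at the base before the start. In WWC2 the matches began 222 and 208 bases before the start, in CCN2 169, 104 and 95 bases before it, in ANKRD1 220 and 128, and in YAP1 162. The WWC2 window held 35 CpG dinucleotides at a GC content of 74.8%, and 94.2% of all windows held fewer. The YAP1 window held 36, the CCN2 window 13 and the ANKRD1 window 4, and the windows at the WWC3 start (32) and at one LATS1 start (31) were near that of WWC2. A match to 6 letters describes the sequence and was not tested as a site of binding, and neither occupancy nor DNA methylation was measured here.

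The genes around WWC2 were next examined, since the difference could be shared along the chromosome. Of the 5 protein-coding genes on each side, 7 passed the minimum of 10 counts in at least 1 of the 2 libraries compared. The nearest upstream gene, DCTD (dCMP deaminase), had 594 counts in parental, 2009 in adriamycin-resistant and 2584 in paclitaxel-resistant cells. DCTD was 2.30-fold (2.10 to 2.52) and 2.81-fold (2.57 to 3.08) higher than in parental cells, and was the 1 neighbour of 7 called higher in adriamycin-resistant cells. Downstream, CDKN2AIP, which encodes a binding partner of the ARF tumour suppressor, had 543, 868 and 2296 counts, 1.09-fold and 2.73-fold of parental. ING2 (401, 665 and 967 counts), RWDD4 (1128, 1693 and 2477 counts) and TRAPPC11 (1173, 1602 and 1907 counts) were under 2-fold in every comparison, as were NEIL3 and AGA farther upstream. TENM3, VEGFC and CLDN24 had 0 counts in all 3 libraries. No neighbour was at least 2-fold lower in any comparison. The bounds of WWC2 follow from its 0 parental counts, for which it was picked, so the neighbours are not set against them. Of the 7, 1 was higher in adriamycin-resistant and 2 in paclitaxel-resistant cells against parental, and 1 between the resistant lines. Over all genes 10.9%, 20.5% and 19.4% were higher, and 11.4%, 13.5% and 14% lower. With 7 genes, nothing is read from these counts. DNA copy number was not measured.

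Annotated genes that overlap or adjoin WWC2 on the opposite strand carried almost no counts. CLDN22, which overlaps the last WWC2 exon, had 0, 0 and 1 counts in parental, adriamycin-resistant and paclitaxel-resistant cells, and WWC2-AS1, whose span covers exon 5, had 0, 0 and 3. WWC2-AS2, which begins just upstream of WWC2 on the minus strand, had 0, 6 and 5 counts. The kit marks strand, but whether the counting used it is not given in the sources used here.

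By Euclidean distance over log2(CPM + 0.1) in the 3 libraries, the protein-coding genes most like WWC2 were BTNL9, ZC3H12C, GFRA1, ABCB1 and ZDHHC2. CPM in this search alone was scaled by TMM on all 3 libraries. BTNL9 (distance 2.23) had 0 counts in parental, 1278 in adriamycin-resistant and 1985 in paclitaxel-resistant cells. ZC3H12C, a member of the Regnase family of RNases (distance 2.48), had 0, 639 and 2433 counts. GFRA1, the GDNF co-receptor (distance 2.52), had 0, 760 and 2049. In all 3 genes, as in WWC2, paclitaxel-resistant cells had the most counts. ABCB1, the P-glycoprotein drug efflux pump (distance 2.91), had 10, 8374 and 8171 counts, and the palmitoyltransferase gene ZDHHC2 (distance 3.60) had 8, 746 and 1297. With only 3 libraries this likeness is a description of single values.

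WWC1 (KIBRA), the family's best known member, had 10365 counts in parental, 22184 in adriamycin-resistant and 18231 in paclitaxel-resistant cells. It was detected strongly in all 3 lines. On the TMM scale WWC1 was 1.45-fold higher in adriamycin-resistant (1.42 to 1.49) and 1.14-fold higher in paclitaxel-resistant (1.11 to 1.16) than in parental cells. In the deposited TPM its levels were 120, 197 and 226, so the log2 fold change of paclitaxel-resistant against parental cells was 0.18 from counts and 0.91 from TPM with a pseudocount of 1, and the difference between the resistant lines was -0.39 from counts but 0.20 from TPM. WWC3, the third family member, had 981, 1731 and 1119 counts, with TMM folds against parental of 1.20 (1.11 to 1.30) in adriamycin-resistant and 0.737 (0.676 to 0.804) in paclitaxel-resistant cells. Thus WWC3 was highest in adriamycin-resistant cells, and was 1.67-fold lower in paclitaxel-resistant than in adriamycin-resistant cells (1.55 to 1.80).

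Within the family, summed TPM was 129 in parental, 218 in adriamycin-resistant and 291 in paclitaxel-resistant cells. These sums and the shares below rest on the TPM of WWC1, which differed more from parental cells than its counts did. In paclitaxel-resistant cells its log2 fold change was 0.91 from TPM and 0.18 from counts. WWC1 made up 92.6%, 90.2% and 77.5% of it, WWC2 0%, 4.71% and 19.4%, and WWC3 7.39%, 5.08% and 3.03%. WWC1 therefore remained the most abundant WWC transcript in each line even where WWC2 was highest, with WWC1 to WWC2 ratios in TPM of 19.2 in adriamycin-resistant and 3.99 in paclitaxel-resistant cells.

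**Figure D2:**
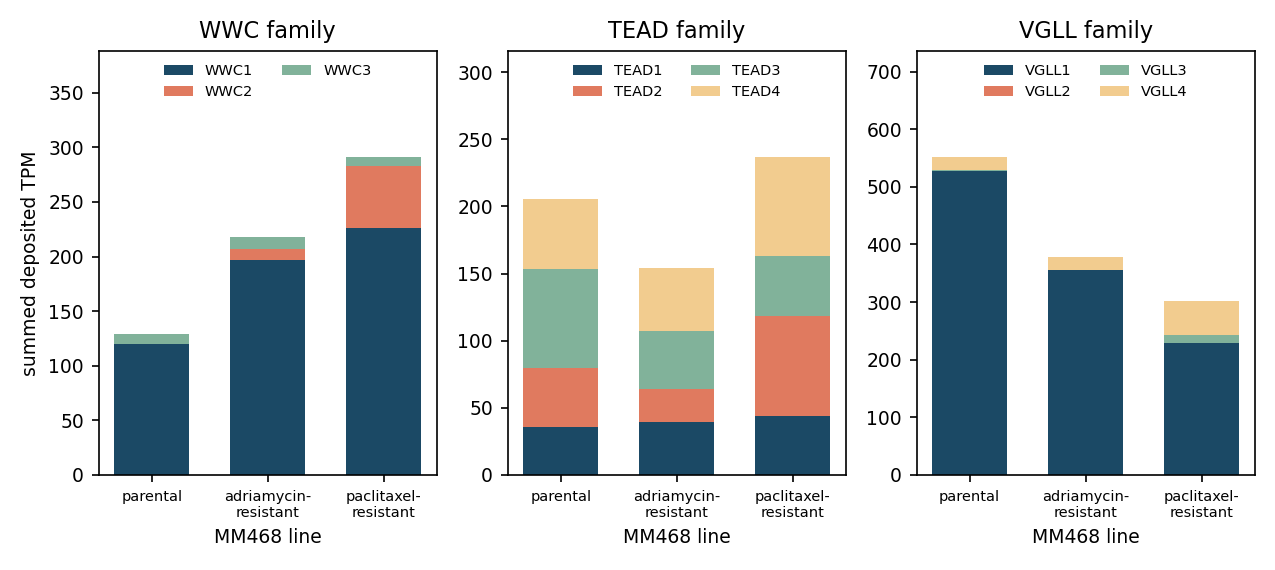
Stacked bars of deposited TPM, summed over the WWC, TEAD and VGLL families, in each MM468 line (1 library each, axes from 0). WWC2 adds 4.71% and 19.4% of the WWC sum in the resistant lines, TEAD3 takes a smaller and TEAD2 a larger share in paclitaxel-resistant cells than in the other lines, and VGLL1 makes up 95.6%, 94.3% and 75.9% of the VGLL sum. WWC1 in the resistant lines differs more from parental cells in TPM than in counts.

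LATS1 and LATS2, the kinases that phosphorylate YAP and TAZ, differed less than 2-fold between any 2 lines. LATS1 had 906 counts in parental, 1576 in adriamycin-resistant and 2031 in paclitaxel-resistant cells, 1.18-fold (1.09 to 1.28) and 1.45-fold (1.34 to 1.57) of parental. LATS2, which is also a YAP target gene, had 689, 1727 and 1344 counts, 1.70-fold (1.56 to 1.86) and 1.26-fold (1.15 to 1.38) of parental. Both kinases were thus above parental in both resistant lines by more than counting error, with LATS1 higher in paclitaxel-resistant and LATS2 higher in adriamycin-resistant cells. The LATS2 to LATS1 ratio in TPM was 0.947, 1.45 and 0.863. None of the 7 genes of the core cassette (STK3, STK4, SAV1, MOB1A, MOB1B, LATS1 and LATS2) was called in any comparison with TMM on the 2 libraries compared. Their median log2 fold change was 0.24 and 0.17 against parental cells and 0.26 between the resistant lines, where all genes gave 0.02, 0.07 and 0.04. Over all genes 10.9%, 20.5% and 19.4% were higher and 11.4%, 13.5% and 14% lower. With 7 genes, nothing is read from a count of 0. That count of 0 depended on the scaling. MOB1B lay just under the threshold between the resistant lines, at a log2 fold change of 0.99, and with library size only it was at 1.24 and STK4 at 1.05, while MOB1B was at 1.09 against parental in paclitaxel-resistant cells. The most abundant of them, the LATS coactivator MOB1A, had 74.4, 65.9 and 105 TPM.

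YAP1 had 8001 counts in parental, 9878 in adriamycin-resistant and 14381 in paclitaxel-resistant cells. It was 1.19-fold lower in adriamycin-resistant (1.16 to 1.23) and 1.16-fold higher in paclitaxel-resistant (1.13 to 1.19) than in parental cells. WWTR1 had 3276, 4092 and 6526 counts and differed in the same directions, 1.18-fold lower (1.13 to 1.23) and 1.29-fold higher (1.23 to 1.34). Both coactivators were therefore lowest in adriamycin-resistant and highest in paclitaxel-resistant cells, with folds between the resistant lines of 1.35 (1.32 to 1.39) for YAP1 and 1.48 (1.42 to 1.54) for WWTR1. The YAP1 to WWTR1 ratio in TPM was 2.27, 2.2 and 2.03.

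TEAD1, a DNA-binding partner of YAP and TAZ, had 4934 counts in parental, 8390 in adriamycin-resistant and 7516 in paclitaxel-resistant cells. It was 1.16-fold higher in adriamycin-resistant than in parental cells (1.12 to 1.20). In paclitaxel-resistant cells its fold was 0.984 (0.949 to 1.02), a log2 fold change of -0.02 with TMM that turned to 0.20 with library size only and 0.30 with TPM. Between the resistant lines TEAD1 differed by -0.27 on the log2 scale with TMM and by 0.14 with TPM. The 4 TEAD genes summed to 206, 154 and 237 TPM. TEAD3 held the largest share in parental cells with 35.7%, TEAD4 in adriamycin-resistant cells with 30.6%, and TEAD2 in paclitaxel-resistant cells with 31.6%. Among the 10 nuclear effector genes, of which VGLL2 was not tested, 0 were higher and 1 was lower in adriamycin-resistant cells, and 2 were higher and 2 lower in paclitaxel-resistant cells, against parental. These were 0% and 11.1%, then 22.2% and 22.2%, of the genes tested. Over all genes tested, 10.9% were higher and 11.4% lower in adriamycin-resistant cells and 20.5% and 13.5% in paclitaxel-resistant cells. Between the resistant lines 3 were higher in paclitaxel-resistant cells (TEAD2, VGLL3 and VGLL4, 33.3%) and 1 lower (VGLL1, 11.1%). All genes gave 19.4% and 14% there. With 9 genes tested, nothing is read from these counts.

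Most calls among the nuclear effectors were of Vestigial-like (VGLL) genes, whose proteins bind TEAD factors in place of YAP and TAZ. VGLL1, the most abundant gene of this list, had 8928, 9166 and 4788 counts in parental, adriamycin-resistant and paclitaxel-resistant cells and was 2.89-fold lower in paclitaxel-resistant than in parental cells (2.79 to 2.99). VGLL3 had 196, 0 and 2616 counts, so that it was at least 96.2-fold lower in adriamycin-resistant and 8.62-fold higher in paclitaxel-resistant cells (7.46 to 10.0). The 2 resistant lines thus lay on opposite sides of parental cells for VGLL3. VGLL4 was 2.07-fold higher (1.94 to 2.21) and TEAD3 2.08-fold lower (1.97 to 2.19) in paclitaxel-resistant than in parental cells. With library size only, the log2 fold change of TEAD3 was -0.83, under the 2-fold threshold.

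CCN2, a secreted matricellular protein and one of the classical YAP target genes, had 7076 counts in parental, 2099 in adriamycin-resistant and 2577 in paclitaxel-resistant cells. Both resistant lines were low and parental cells high, at 205, 39.9 and 60.5 TPM. CCN2 was 4.96-fold lower in adriamycin-resistant (4.73 to 5.21) and 4.25-fold lower in paclitaxel-resistant cells (4.06 to 4.45), and 1.14-fold higher in the latter than in the former (1.08 to 1.21). CCN1, its close paralogue and also a YAP target gene, had 10347, 8177 and 19364 counts. CCN1 was 1.86-fold lower in adriamycin-resistant (1.81 to 1.92) and 1.21-fold higher in paclitaxel-resistant cells (1.18 to 1.24), and 2.2-fold higher in the latter than in the former (2.14 to 2.25). In paclitaxel-resistant cells the 2 genes therefore lay on opposite sides of parental cells. The CCN1 to CCN2 ratio in TPM was 1.50 in parental, 4.0 in adriamycin-resistant and 7.71 in paclitaxel-resistant cells.

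Of the 10 members, 1 was at least 2-fold higher (WWC2) and 1 at least 2-fold lower (CCN2) in adriamycin-resistant than in parental cells. Of all 17950 genes tested in that comparison, 10.9% were higher and 11.4% lower. In paclitaxel-resistant cells WWC2 was again the 1 member higher and CCN2 the 1 member lower, where 20.5% of 19099 genes were higher and 13.5% lower. These comparisons share the parental library, so they are not independent. Between the resistant lines 2 members were higher in paclitaxel-resistant cells, WWC2 and CCN1, and 0 were lower, where 19.4% of 19327 genes were higher and 14% lower. The members' median log2 fold changes were 0.22, 0.24 and 0.22 in the 3 comparisons, against 0.02, 0.07 and 0.04 over all genes tested. Since the choice of WWC2 used both comparisons with parental cells, nothing is read from these counts about the members as a group.

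The wider set of 22 YAP and TAZ target genes, which includes CCN1 and CCN2, held genes called in both directions. Of these, 21 were tested. In adriamycin-resistant cells 4 were at least 2-fold higher (19.0%) and 3 lower (14.3%) than in parental cells, with a list median log2 fold change of 0.04. In paclitaxel-resistant cells 5 were higher (23.8%) and 3 lower (14.3%), with a median of 0.33. Set against adriamycin-resistant cells, 5 were higher (23.8%) and 2 lower (9.52%) in paclitaxel-resistant cells, with a median of 0.19. All genes gave 10.9% higher and 11.4% lower, then 20.5% and 13.5%, then 19.4% and 14%, in the same order of comparisons. The list was written with earlier results of these data known, and no test was made of it. A share above that over all genes is therefore a description only. The largest excess over these shares was that of genes higher in adriamycin-resistant cells (19.0% against 10.9%). It rested on AXL, FOXF2, ANKRD1 and NUAK2. With TPM and a pseudocount of 1 only FOXF2 of these stayed called, at a log2 fold change of 2.18. AXL was then at 0.97, and ANKRD1 and NUAK2 were at 0.96.

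AXL, a receptor tyrosine kinase, had 88 counts in parental, 383 in adriamycin-resistant and 1243 in paclitaxel-resistant cells. It was 2.95-fold (2.34 to 3.77) and 9.12-fold (7.35 to 11.5) higher, and its log2 fold change in adriamycin-resistant cells was 1.56 from counts and 0.97 from TPM with a pseudocount of 1. FOXF2, a forkhead transcription factor, had 14, 286 and 78 counts and was 13.8-fold (8.14 to 25.7) and 3.58-fold (2.02 to 6.89) higher. AXL and FOXF2 were thus above parental in both resistant lines, in opposite order. TGFB2, a TGF-beta ligand, had 7412, 3280 and 1963 counts and was lower in both, 3.33-fold (3.19 to 3.47) and 5.84-fold (5.56 to 6.15), as CCN2 was.

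Some further target genes were called between the resistant lines as well. ANKRD1, an ankyrin-repeat cofactor, had 609 counts in parental, 1839 in adriamycin-resistant and 62 in paclitaxel-resistant cells, 2.05-fold higher (1.87 to 2.25) in the former and 15.2-fold lower (11.7 to 20.1) in the latter. The log2 fold change of ANKRD1 in adriamycin-resistant cells was 1.04 from counts and 0.96 from TPM with a pseudocount of 1, so that call lies at the threshold. NT5E, the ecto-nucleotidase CD73, had 3712, 718 and 7210 counts, low in adriamycin-resistant cells alone. It was 7.61-fold lower there than in parental cells (7.02 to 8.25), and 9.31-fold higher in paclitaxel-resistant than in adriamycin-resistant cells (8.63 to 10.1). CRIM1, a transmembrane regulator of BMP signalling, had 10643, 14963 and 50735 counts and was 3.08-fold higher in paclitaxel-resistant than in parental cells (3.02 to 3.15). The coagulation initiator F3 (tissue factor) was 2.07-fold higher (1.99 to 2.16) in the same comparison.

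CCDC80 and NUAK2 were each called against parental cells in 1 resistant line, and were under 2-fold between the resistant lines. CCDC80 was 2.22-fold higher (2.09 to 2.35) in paclitaxel-resistant cells. The kinase gene NUAK2 was 2.11-fold higher (1.89 to 2.35) in adriamycin-resistant cells, with a log2 fold change of 1.08 from counts and 0.96 from TPM with a pseudocount of 1, so that call too lies at the threshold.

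Upstream of the kinases, most listed genes were within 2-fold. Of the 10 scaffold genes 1 was higher and 0 lower in adriamycin-resistant cells and 0 higher and 1 lower in paclitaxel-resistant cells, against parental. None of these counts was above the share over all genes (10.9% and 11.4%, then 20.5% and 13.5%). Between the resistant lines 0 were higher and 1 was lower in paclitaxel-resistant cells (10%), where all genes gave 19.4% and 14%. AMOT, an angiomotin that holds YAP in the cytoplasm, had 9634 counts in parental, 9042 in adriamycin-resistant and 5055 in paclitaxel-resistant cells, 2.95-fold lower (2.85 to 3.05) in the last than in parental. The most abundant gene of this list, AMOTL2, had 108, 155 and 134 TPM. RASSF6, at 22 counts in parental and 127 in adriamycin-resistant cells, was 3.91-fold higher in the latter (2.48 to 6.48), but its log2 fold change of 1.97 was 0.77 with TPM and a pseudocount of 1.

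Of the 17 polarity and cadherin genes 1 was higher and 2 lower in adriamycin-resistant cells, and 2 were higher and 1 lower in paclitaxel-resistant cells, against parental. These were 5.88% and 11.8%, then 11.8% and 5.88%, where all genes gave 10.9% and 11.4%, then 20.5% and 13.5%. Between the resistant lines 3 were higher (17.6%) and 0 lower in paclitaxel-resistant cells, where all genes gave 19.4% and 14%. The atypical cadherin FAT4 had 8 counts in parental, 29 in adriamycin-resistant and 895 in paclitaxel-resistant cells, and was 2.45-fold (1.10 to 6.23) and 71.4-fold (36.5 to 168) higher. FAT3, of the same family, had 711, 931 and 6669 counts and was 6.06-fold higher in paclitaxel-resistant than in parental cells (5.61 to 6.56). With TPM and a pseudocount of 1 the log2 fold changes of FAT4 were 0.06 and 1.91, so that only the call in paclitaxel-resistant cells held there. High FAT3 and FAT4 counts were thus a feature of the paclitaxel-resistant library. DCHS2, a protocadherin of the Dachsous type, had 138, 28 and 103 counts and was 7.22-fold lower in adriamycin-resistant (4.81 to 11.3) and 2.07-fold lower in paclitaxel-resistant cells (1.60 to 2.70), the latter call being lost with library size only, at a log2 fold change of -0.82, and both with TPM and a pseudocount of 1, at -0.66 and -0.29. PATJ, a junctional scaffold, was 2.08-fold lower in adriamycin-resistant cells (2.00 to 2.16). The polarity protein gene LLGL2 was the most abundant of this list, with 121, 113 and 132 TPM.

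Among the 10 kinases that act beside MST on LATS, 1 was higher and 1 lower in adriamycin-resistant than in parental cells (10% each). In paclitaxel-resistant cells 0 were higher and 1 was lower than in parental cells (0% and 10%). These shares were below those over all genes (10.9% and 11.4%, then 20.5% and 13.5%). Between the resistant lines 2 were higher and 2 lower in paclitaxel-resistant cells (20% each), where all genes gave 19.4% and 14%. With 10 genes, nothing is read from these counts. TNIK had 167, 38 and 197 counts in parental, adriamycin-resistant and paclitaxel-resistant cells and was 6.45-fold lower in adriamycin-resistant than in parental cells (4.52 to 9.46). With TPM and a pseudocount of 1 its log2 fold change of -2.69 became -0.88, under the threshold. TAOK1 was 2.76-fold higher in adriamycin-resistant cells (2.68 to 2.85) and MAP4K2 3.05-fold lower in paclitaxel-resistant cells (2.78 to 3.35). The most abundant, MINK1, had 42.5, 40.0 and 54.2 TPM. Of the 8 inhibitors of the pathway 0 were called in adriamycin-resistant cells against parental. In paclitaxel-resistant cells 1 (12.5%), the LIM protein gene AJUBA, was called at 2.65-fold higher (2.51 to 2.80), and 0 were lower. Between the resistant lines 1 (12.5%), SLMAP, was 2.02-fold higher in paclitaxel-resistant cells (1.94 to 2.11), and 0 were lower. All genes gave 10.9% and 11.4%, then 20.5% and 13.5%, then 19.4% and 14%. With 8 genes, nothing is read from these counts. PPP2R1A, the scaffold subunit of phosphatase PP2A and the most abundant inhibitor gene, had 94.6, 102 and 110 TPM.

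Over all 83 genes of these lists, 81 were tested against parental cells. In adriamycin-resistant cells 8 were at least 2-fold higher, 7 lower and 66 within 2-fold, with a median log2 fold change of -0.01. In paclitaxel-resistant cells 11 were higher, 8 lower and 62 within 2-fold, with a median of 0.18. Against adriamycin-resistant cells, 15 were higher and 6 lower in paclitaxel-resistant cells, with a median of 0.15. In adriamycin-resistant cells 9.88% were thus higher and 8.64% lower, where all genes gave 10.9% and 11.4%. The shares in paclitaxel-resistant cells were 13.6% and 9.88%, where all genes gave 20.5% and 13.5%. Between the resistant lines they were 18.5% and 7.41%, where all genes gave 19.4% and 14%. Each share was below that over all genes, and no test was made of it.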

How the data were processed

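RNA from 1 library each of parental, adriamycin-resistant and paclitaxel-resistant MM468 cells was sequenced and analysed by Macrogen Japan Corp after TruSeq Stranded mRNA preparation. The labels and the study's methods name different RNA extraction kits. The submitters' processing notes name Trimmomatic 0.39, HISAT2 2.2.1, StringTie 2.2.1 and GRCh38, and the annotation release and the use of strand in counting are not given in the sources used here. The authors deposited whole-number read counts for 46427 genes, without normalization. The authors also deposited FPKM and TPM values, which were used for levels between genes and as alternatives.

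Each comparison used its own 2 libraries. Genes with at least 10 counts in either were kept, and log2 fold changes were computed by edgeR 4.0.16 (R 4.3.3) after TMM normalization, with 0.125 as prior count. With 1 library per line no test across genes could be fitted. A fold against 0 counts is a lower bound against 3 counts. The fold and interval steps were checked on simulated counts that held counting error only, with changes balanced in both directions. That check does not bear on variation between replicates or on the dependence on scaling described above. Medians, calls and promoter searches were computed in Python 3.11.15 with pandas 2.3.3, and plots were drawn with matplotlib 3.10.9. One list symbol, PALS1, was matched by NCBI Gene ID to its older symbol MPP5. Promoter windows and coordinates are those of RefSeq GRCh38.p14, and exon numbers those of GENCODE v29.

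The members and lists were chosen with earlier results of these data known. Genes named are the 10 members, list genes changed at least 4-fold in 1 comparison with at least 100 counts in 1 library, the most abundant gene of each list by mean TPM, the 5 protein-coding genes most like WWC2, and its 5 protein-coding neighbours on each side. VGLL4, TEAD3, CRIM1, F3, CCDC80, NUAK2, AMOT, RASSF6, PATJ, TAOK1, MAP4K2, AJUBA and SLMAP were added once values had been seen. Alternatives tried were scaling by library size alone, by DESeq2 1.42.0 size factors or by TMM on all 3 libraries, 2 as prior count, leaving out the count minimum or raising it to 100, TPM with a pseudocount of 1 or 0.1, FPKM with a pseudocount of 1, and a 4-fold threshold.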

Additional observations from a re-analysis of the deposited data

Results flagged for a closer look

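VGLL3 and ANKRD1 were at least 2-fold higher than parental cells in one resistant line and at least 2-fold lower in the other, and this difference between the lines was not tested because each line has 1 library. For VGLL3, from 196 parental counts, the log2 fold change was -6.59 in adriamycin-resistant cells, a bound set against 3 counts, and 3.11 in paclitaxel-resistant cells. For ANKRD1, from 609 parental counts, it was 1.04 in adriamycin-resistant and -3.92 in paclitaxel-resistant cells.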

How the results depend on the processing

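No paired analysis was possible because each line has 1 library, and no replicate could be left out. No log2 fold change called among the members changed sign under the alternatives run. The bound for WWC2 was 8.85 in adriamycin-resistant cells and 3.49, 6.70 and 2.44 with TPM (pseudocount 1, then 0.1) and FPKM, where the pseudocount sets the value. In paclitaxel-resistant cells it was 10.87 and, in that order, 5.85, 9.15 and 4.53. Between the resistant lines the log2 fold change of WWC2 was 1.98, and 2.23 with library size only, 2.05 with a minimum of 100 counts, 2.35 and 2.45 with TPM (pseudocount 1, then 0.1) and 2.09 with FPKM. At 4-fold, 0 members were higher in paclitaxel-resistant than in adriamycin-resistant cells, in place of 2 at 2-fold.

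Of the Hippo list genes, 8 were higher in adriamycin-resistant than in parental cells, and 3 with TPM (pseudocount 1), 3 with FPKM and 2 at 4-fold. The 7 lower became 3 with FPKM. In paclitaxel-resistant cells the 11 higher became 17 with TPM (pseudocount 0.1) and 5 at 4-fold, and the 8 lower became 3 at 4-fold. Between the resistant lines the 15 higher became 23 with TPM (pseudocount 0.1) and 5 at 4-fold, and the 6 lower became 2 with TPM (pseudocount 1), 1 with FPKM and 1 at 4-fold. Other counts of members and of these genes together (107 of 120) stayed within 1.5 times. Over all genes, the 1963 higher and 2043 lower in adriamycin-resistant cells ranged from 460 to 4337 and from 663 to 3751. The 3909 and 2586 in paclitaxel-resistant cells ranged from 1374 to 7035 and from 873 to 3869, and the 3751 and 2700 between the resistant lines from 1334 to 6520 and from 781 to 4354. The highest counts came with no count minimum. Low counts limit FAT4, FOXF2, DCHS2, TNIK and RASSF6, whose intervals are wide, and the number of libraries limits every comparison.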

Other observations

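Counts per deposited FPKM of a gene, divided between 2 libraries and set relative to the median gene, give the transcript length that the authors' quantification used. For WWC1 this ratio was 0.856 in adriamycin-resistant against parental cells, where 1.43% of 11996 genes with at least 100 counts in both libraries lay at or below it, and 0.756 in paclitaxel-resistant against parental cells, where 0.502% of 11955 genes did. For the 8 other members with such counts it lay between 0.996 and 1.06 in both comparisons. For WWC2 the ratio of paclitaxel-resistant to adriamycin-resistant cells was 0.953, with 6.27% of 12392 genes at or below it. Among the 9 members with at least 100 counts in parental cells and in the resistant line compared, WWC1 had the ratio farthest from 1. Which transcripts were counted was not tested.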
